A study of Mus musculus with 2 samples.

Results

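The CD8-negative T cells of the primary tumour were 111 cells out of 9989 kept cells of the tumour library, or 1.11% (0.915 to 1.34). They were chosen by their own unique molecular identifiers (UMIs), the molecules counted per gene and cell. A kept cell had over 200 detected genes and at most 5% of its UMIs in mitochondrial genes. Among kept cells the rule took those with at least 2 UMIs of Cd3d, Cd3e and Cd3g together and none of Cd8a and Cd8b1, none of Foxp3, fewer than 20 of the keratins Krt8 and Krt18, and at most 2 of C1qa, C1qb and C1qc. The tumour library was deposited with 12427 cells, and the whole series with 24044, of which 21258 met the gene and mitochondrial limits. Of the 111 cells, 41 held a UMI of Cd4 and are called Cd4-positive (36.9%, 28.0 to 46.6), 2 held a UMI of Trdc and are called Trdc-positive (1.80%, 0.219 to 6.36), 0 held both, and the remaining 68 held neither and are called other cells (61.3%, 51.5 to 70.4). Since the CD3, CD8, Foxp3, Cd4 and Trdc counts chose the cells, their values are given only as a description.

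The study grew EO771-HEVM3 tumours in female C57BL/6J mice obtained at 5 to 6 weeks of age. EO771 is a breast cancer line of this strain. From it the study derived HEVM3 by 3 rounds of selection for cells that reached the lung by way of high endothelial venules, the lymph node vessels that let lymphocytes in from blood. The tumours and the paired lymph nodes of 6 mice were pooled into 1 library each, so both tissues came from animals that carried the tumour, and tissue of mice without a tumour was not analysed here. Tumours were digested for 2 h and lymph nodes for 1 h in a different enzyme mix, and red blood cells were lysed. No sort of T cells is described, so the cells came from the whole suspension. With 1 library per tissue no test was run and no value has a replicate check. Bracketed values are exact 95% intervals, Clopper-Pearson for shares of cells and Poisson for levels, and cover counting error only. A level is the UMIs of a gene summed over the cells of a class per 1000000 UMIs of that class (CPM). The deposited counts are 3′ counts, so levels are compared within a gene and not between genes.

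T cells recognise antigen through a receptor whose alpha and beta chains, or gamma and delta chains, sit in the membrane with the CD3 proteins. CD4 and CD8 are the coreceptors that bind MHC class II and class I. CD4 helper cells act largely through what they release or display: interferon gamma in type 1 cells, interleukin 4, 5 and 13 under the factor GATA3 in type 2 cells, interleukin 17 in type 17 cells, and surface ligands of the TNF family such as CD40 ligand. Many gamma delta T cells of mouse tissues make interleukin 17. T cells that stay in a tissue typically carry the chemokine receptor CXCR6 and lose CCR7 and S1PR1, molecules by which naive cells enter and leave lymph nodes.

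The label was checked first against markers the rule did not use. A UMI of a constant region of the alpha or beta chain (Trac, Trbc1 or Trbc2) was found in 97 of the 111 cells, and in 87 without counting Trbc1. Trbc1 was left aside in the second count because tumour cells with at least 20 keratin UMIs and no CD3 UMI, which should lack it, held it at 212 CPM, against 14.4 CPM of Trbc2 and 3.68 CPM of Trac. In the Cd4-positive cells Trac was at 374.8 CPM and Trbc2 at 1109 CPM, and in the other cells at 322 and 579 CPM. Of the CD3 genes, which the rule used, Cd3d was seen in 84 cells, Cd3g in 82 and Cd3e in 64, and all 3 together in 29. Markers of other cell classes were low in most cells. Of the 20 defining markers of B cells, myeloid cells, dendritic cells, fibroblasts and vessels, 7 were at 0 UMIs in every cell (Cd79a, Cd79b, Ms4a1, Siglech, Cdh5 and Kdr among them), 86 cells held none of the 20 and 11 cells held 2 or more. Keratin, also limited by the rule, was absent from 77 cells, 29 cells held 1 to 4 UMIs of Krt8 and Krt18 and 5 cells held 5 to 19. The sum of the 20 markers ran from 0 to 18 UMIs per cell in the Cd4-positive cells and from 0 to 35 in the other cells, at 275 and 623 CPM.

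The cells were shallow. They held 516 to 16801 UMIs with a median of 1593, and a median of 895 detected genes, while the keratin-positive tumour cells had a median of 18363 UMIs. The class held 272009 UMIs in all, so that a gene at 0 could still have stood at up to 11.0 CPM (3 counts). The median cell held 3 CD3 UMIs and the highest held 25. The median was 5 in Cd4-positive and 2 in other cells, which also differed in depth, with medians of 1854 and 1443.5 UMIs. The rule's edges were well populated. With the other limits met, 42 cells had exactly 2 CD3 UMIs and entered, 70 cells had exactly 1 and did not, and 23 had exactly 3. The keratin limit left out 23 further cells, the C1q limit 0 and the mitochondrial limit 49. On the CD8 side, 65 of the 318 CD8 T cells of the same library, taken by the same limits but with a Cd8a or Cd8b1 UMI, had only 1 such UMI. No cell exceeded the upper limit on detected genes that the study's methods give.

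**Figure D1:**
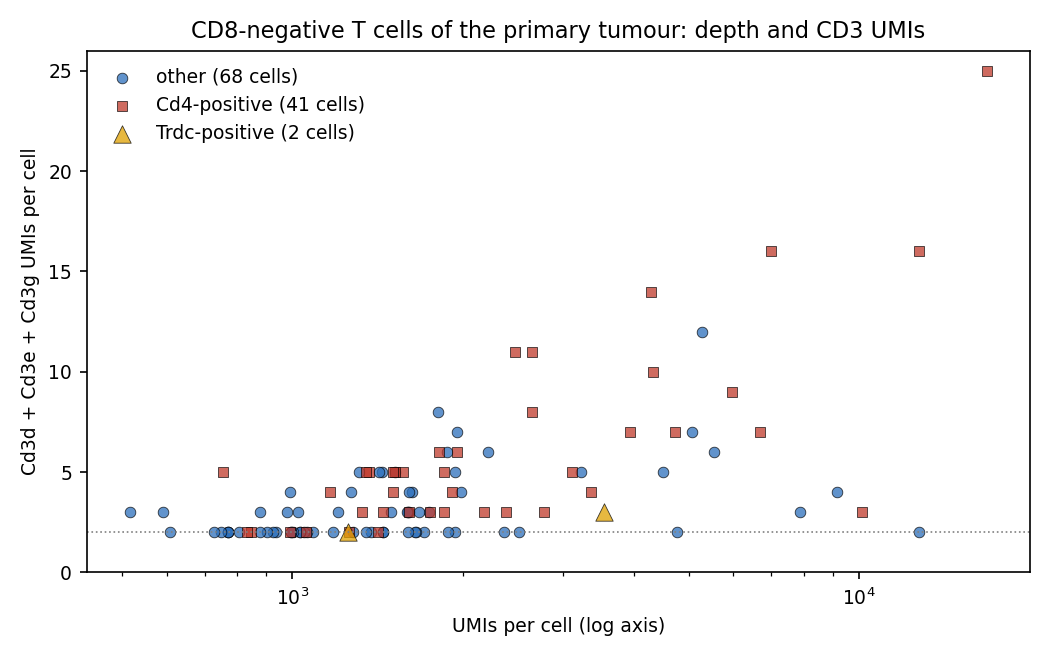
UMIs per cell (horizontal, log axis) against the UMIs of Cd3d, Cd3e and Cd3g together (vertical) for the 111 CD8-negative T cells of the primary tumour, with the dotted line at the limit of 2. Points are other cells (68), squares Cd4-positive cells (41) and triangles Trdc-positive cells (2), and the cell with most CD3 UMIs (25) is also the deepest (16801 UMIs).

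At such depths a missing UMI says little about a single cell. When each CD8 T cell of the tumour was thinned to 1000 UMIs, 79.9% were expected to keep a CD8 UMI (296 cells, 22 shallower ones left out) and 20.1% to show none. At 500 UMIs 56.9% kept one. These cells were chosen for holding a CD8 UMI, so CD8 T cells that already showed none are not in these shares. CD8 T cells with none counted therefore cannot be told apart from cells without CD8 in the other cells. Cd4 was also easily missed. Of 10 tumour cells with a Foxp3 UMI and no CD8 UMI, which usually carry CD4, 5 held a Cd4 UMI, and 38.6% were expected to after thinning to 1000 UMIs. Foxp3 itself, by which these cells were chosen, was expected in 71.9% of them after thinning (34.5 to 94.9; 9 cells). Foxp3 cells with none counted therefore cannot be told apart within the CD8-negative cells. The Cd4-positive cells themselves rested on 82 Cd4 UMIs, with 23 of 41 cells at a single UMI and the highest cell at 8. Cd4 was found in 4 of 318 CD8 T cells (thinned, 0.289%) and in 7 of 6175 keratin cells (0.113%; thinned, 0.00676%), against a thinned 25.5% (16.8 to 35.8; 89 cells, 22 left out) of the CD8-negative cells, at median depths of 2095.5, 18363 and 1593 UMIs.

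Droplet barcodes and doublets touched few of the cells. The libraries shared 47 barcodes, and 1 of the 111 cells had such a barcode, with 753 UMIs and 1 Cd4 UMI in the tumour and 1795 UMIs and 1 Cd4 UMI in the lymph node, where it was also a CD8-negative T cell. Without it 110 cells were left. Without cells called as doublets 106 were left, of which 36.8% were Cd4-positive.

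Among all tumour cells with at least 2 CD3 UMIs under the same limits (444 cells), CD8-negative cells were 25% (21 to 29.3), CD8 T cells 71.6% (67.2 to 75.8) and Foxp3 cells without CD8 2.25% (1.09 to 4.10). In the lymph node library the CD8-negative cells were 2236 of 3942 such cells, or 56.7% (55.2 to 58.3), and CD8 T cells 38.8% (37.3 to 40.4). By count, CD8-negative cells were outnumbered by CD8 T cells in the tumour and were the larger class in the lymph node. A CD8 T cell thinned to 1000 UMIs kept a CD8 UMI in 45.1% of draws in the lymph node and in 79.9% in the tumour. Both classes were chosen for a CD8 UMI, at median depths of 4082 and 2095.5 UMIs, which also shapes these values. The part of missed CD8 in the shares of the classes was not tested. Within the lymph node CD8-negative cells, 580 were Cd4-positive (25.9%, 24.1 to 27.8), 103 Trdc-positive (4.61%, 3.78 to 5.56), 2 held both and 1551 held neither (69.4%, 67.4 to 71.3). The Cd4-positive share of the tumour cells was 36.9%. Cd4 was read in 40.1% of the lymph node Foxp3 cells and in 50% of those of the tumour. After thinning to 1000 UMIs the shares were 12.8% (7.98 to 19.1; 155 cells, 2 left out) and 38.6% (10.2 to 74.3; 9 cells, 1 left out). These intervals overlap, so a difference in detection is not shown. A difference in composition and one in detection cannot be told apart. The level of Cd4 in the Cd4-positive cells was 346 CPM in the lymph node and 627 CPM in the tumour, values that the choice of the cells by this gene also shapes.

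The Cd4-positive cells of the tumour were set against the other cells, a contrast added after the data were seen. The 41 cells held 130748 UMIs and the 68 other cells 136467, so that a gene at 0 could have stood at up to 22.9 and 22 CPM. Of 2415 genes with at least 20 UMIs in the classes together, 10.5% were at least 2-fold higher and 6.87% at least 2-fold lower in the Cd4-positive cells, and the median log2 ratio was 0.11. Against this background, the type 2 list (9 genes) had 4 of its 5 measurable genes higher and 0 lower, the cell cycle list (12 genes) 8 of 9 higher and 0 lower, and the list of activation and costimulation genes (13 genes) 3 of 8 higher and 0 lower. The cytotoxic list (16 genes) had 0 higher and 5 of 9 lower, and the naive and central memory list (10 genes) 0 higher and 4 of 6 lower. Measurable here means that a gene reached the 20 UMIs, which some did only through the class where they were high. In the type 2 list Il13 and Il5 did so, with 93.1% and 95.2% of their UMIs in 1 cell. Of the Areg UMIs in Cd4-positive cells 70% were in another cell. The count and median of the type 2 list therefore describe few cells. The list medians on the log2 scale were 1.60 for type 2, 1.39 for cell cycle, 0.48 for activation, -1.59 for cytotoxic and -1.21 for naive genes.

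The type 2 genes were concentrated in very few cells. Il13, a type 2 cytokine that acts on epithelium and macrophages, had 116 UMIs in 3 Cd4-positive cells, which held 108, 7 and 1, and none in the 68 other cells. Il5, which drives eosinophils, had 21 UMIs in 2 of those same cells, with 20 and 1, and Ccl1, the ligand of CCR8, had 142 UMIs in 3 cells, with 126, 15 and 1. In each case 1 cell held most of the gene, with 93.1% of the Il13 UMIs, 95.2% of those of Il5 and 88.7% of those of Ccl1. This was the deepest cell of the class, with 16801 UMIs and 12.8% of all UMIs of the Cd4-positive cells. It also held 197 UMIs of Penk, the enkephalin precursor, 26 of Tnfsf8, 12 of Tnfsf11, 10 of Gata3, 8 of Cd4, 7 of Cd40lg and 21 of Mki67, 1 of Tbx21, no UMI of Ifng or of Ccl5, and 1 UMI of the markers of other cell classes. Another Cd4-positive cell, with 6671 UMIs, had the same set of genes at lower counts: Penk 33, Ccl1 15, Il13 7, Il5 1, Gata3 2 and Cd4 3, beside 2 UMIs of Ifng. Il4, the remaining type 2 cytokine of the list, had no UMI in any of the 111 cells.

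Il13 (chr11:53631324-53634702, minus strand) and Il5 (chr11:53720794-53725106, plus strand) lie 86091 bases apart on GRCm38 in the GENCODE M21 annotation, with Il4 (chr11:53602982-53618669) beside Il13. Ccl1 (chr11:82176657-82305690, minus strand) is farther along the same chromosome. Because these 3 genes were read together in the same cells, the 250 bases before their RefSeq starts (GRCm38.p6) are shown 5′ to 3′ on the gene's strand, with each GATA, the core letters bound by GATA3 and its family, and its reverse complement TATC in capitals.
Il13, chr11:53634703-53634952: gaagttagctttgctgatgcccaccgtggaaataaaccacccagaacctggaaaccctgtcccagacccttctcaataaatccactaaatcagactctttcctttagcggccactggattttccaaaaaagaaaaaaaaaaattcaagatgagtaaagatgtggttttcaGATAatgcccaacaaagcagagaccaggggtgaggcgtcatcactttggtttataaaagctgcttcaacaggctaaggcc
Il5, chr11:53720544-53720793: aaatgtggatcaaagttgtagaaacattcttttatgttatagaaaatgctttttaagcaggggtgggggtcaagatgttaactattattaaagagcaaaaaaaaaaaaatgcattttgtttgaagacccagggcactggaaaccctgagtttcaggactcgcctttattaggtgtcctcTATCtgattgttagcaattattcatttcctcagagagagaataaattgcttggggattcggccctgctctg
Ccl1, chr11:82179813-82180062: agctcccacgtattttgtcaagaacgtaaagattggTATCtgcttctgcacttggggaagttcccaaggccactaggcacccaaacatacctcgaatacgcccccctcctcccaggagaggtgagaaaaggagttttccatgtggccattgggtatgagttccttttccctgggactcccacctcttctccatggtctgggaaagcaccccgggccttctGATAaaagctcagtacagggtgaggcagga
The Il13 window held 1 match (GATA, 80 bases before the start), the Il5 window 1 (TATC, 71 bases before it) and the Ccl1 window 2, 1 on each strand, the nearer 30 bases before the start. The 4 letters are common: of 32851 windows of this length from 27025 genes, 53.6% held at least 1 match on either strand, overlaps included. A match is a description of the letters and not a bound site, and no binding was measured. The Ccl1 window lies within the longer GENCODE span of the gene, since RefSeq starts the gene elsewhere.

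Penk had the largest ratio in favour of the Cd4-positive cells, among genes found in at least 5 of them and no lower there than in cells without CD3. It was found in 10 of the 41 Cd4-positive cells, with 197, 59, 33, 4, 3 and 2 UMIs in 6 of them and 1 UMI in each of 4, at 2309.8 CPM. In the other cells it had 12 UMIs in 7 cells, at 87.9 CPM, giving a log2 ratio of 4.66 (3.89 to 5.68). Without the deepest cell of each class the ratio was 3.20, and in the Cd4-positive cells the level was 921 CPM. All 3 cells with Il13 also held Penk. None of the 10 Cd4-positive Penk cells held Ccl5, which was in 9 of the 41, while 3 of the 7 Penk cells among the other cells did. In all tumour cells without a CD3 UMI Penk was at 0.447 CPM.

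The 3 activation genes at least 2-fold higher in the Cd4-positive cells were Il2ra, Tnfsf8 and Tnfsf11. Cd40lg, the ligand that licenses B cells and dendritic cells through CD40, had 12 UMIs in 6 Cd4-positive cells and 1 UMI in 1 other cell, and none in 318 CD8 T cells. Tnfsf8 (CD30 ligand) was at 314 CPM in 10 Cd4-positive cells against 87.9 CPM in 7 other cells, a log2 ratio of 1.79 (0.88 to 2.90). Of its 41 UMIs in the Cd4-positive cells 26 were in the deepest cell. Without that cell the level was 132 CPM, less than 2-fold above the 87.9 CPM of the other cells. Il2ra, the alpha chain of the interleukin 2 receptor, was at 229 CPM in 11 cells against 66.0 CPM in 6, a log2 ratio of 1.74 (0.69 to 3.06). Tnfsf11 (RANKL) stood at 283 CPM in 12 cells against 139 CPM in 9, a log2 ratio of 1.01 (0.19 to 1.90) that went to 0.51 without the deepest cells. Csf1, the growth factor of macrophages, was more widely spread, with 28 UMIs in 16 Cd4-positive cells and no cell above 5, against 4 UMIs in 3 other cells, a log2 ratio of 2.72 (1.35 to 4.84).

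**Figure D2:**
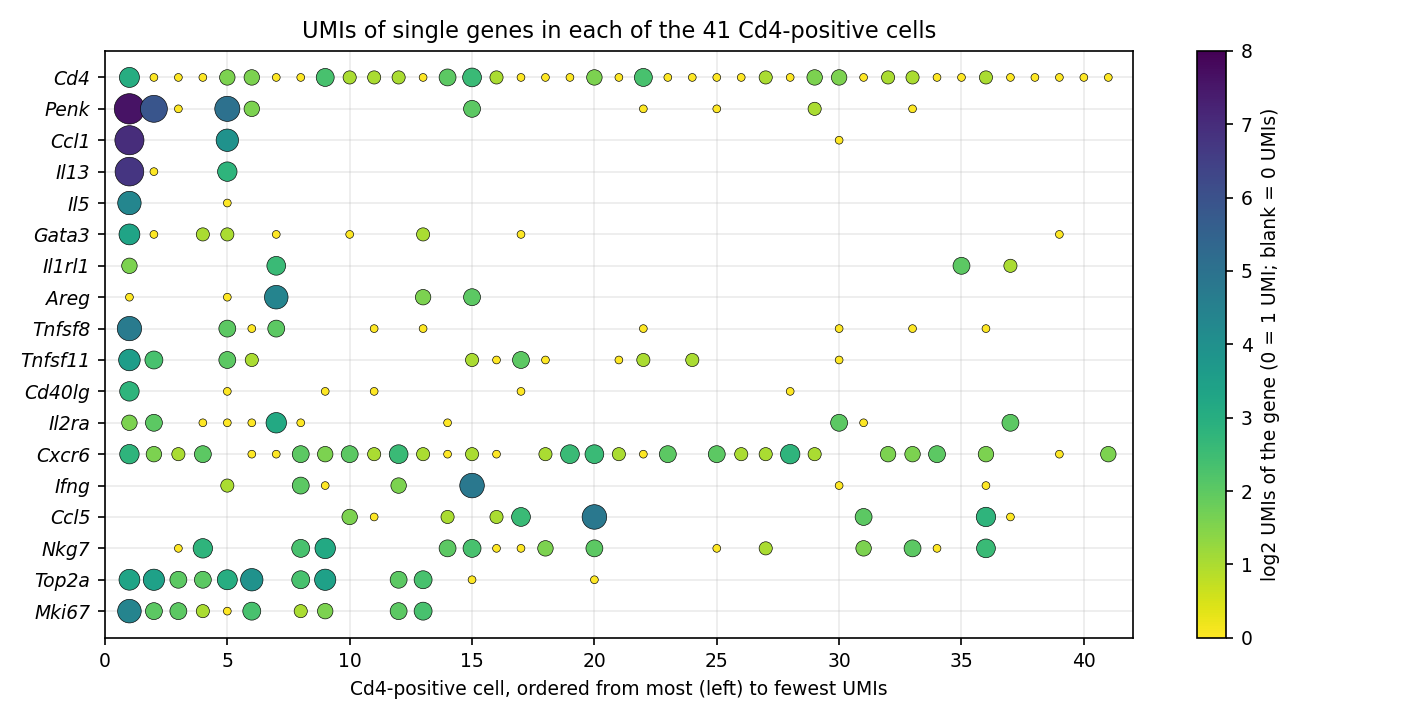
UMIs of 18 genes in each of the 41 Cd4-positive cells, which are ordered along the horizontal axis from most to fewest UMIs, with the size and colour of a circle giving the log2 UMI count and a blank meaning 0 UMIs. Il13 and Il5 sit in 3 and 2 cells at the deep end, Cxcr6 is spread over 32 cells, and the largest Ifng count (28) is in a cell without Il13.

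Of the type 1 list, 2 of 4 measurable genes, Ifng and Il18rap, were at least 2-fold higher in the Cd4-positive cells and 0 were lower. Ifng, the type 1 cytokine, had 40 UMIs in 7 Cd4-positive cells, with 28, 4, 3 and 2 UMIs in 4 of them and 1 UMI in each of 3, at 306 CPM against 139 CPM in 10 of the other cells. The cell with 28 had 2650 UMIs in all, 6 of Cd4, 4 of Areg and 4 of Penk, and no Il13. Without it the level in Cd4-positive cells was 93.7 CPM, below that of the other cells. Tbx21, the type 1 factor, had 1 UMI in each of 7 Cd4-positive cells, 4 of them with Ifng and 2 of them with Il13, the cells of 16801 and 6671 UMIs. Areg, which codes for the repair factor amphiregulin, had 30 UMIs in 5 cells, of which 21 were in a cell of 4732 UMIs that also held 6 UMIs of Il1rl1, the interleukin 33 receptor, and 9 of Il2ra, but no Il13. Areg was also read in keratin cells, at 33.5 CPM, against 229 CPM in the Cd4-positive cells, and the Foxp3 cells had more of it, with 28 UMIs in 5 of 10 cells (1171 CPM). Gata3 itself was at 161 CPM in 9 Cd4-positive cells and 139 CPM in 14 other cells, with a log2 ratio of 0.20 (-0.76 to 1.18).

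Cell cycle genes were higher in the Cd4-positive cells. Top2a, which untangles DNA before division, had 79 UMIs in 12 Cd4-positive cells (604 CPM) and 18 in 3 other cells (132 CPM), a log2 ratio of 2.17 (1.44 to 3.02), and 2.03 without the deepest cells. Of the 12 cells, 10 also held Mki67. Tyms, which makes thymidylate, was at 168 against 14.7 CPM, and Stmn1, a regulator of microtubules, at 788 against 337 CPM. Keratin cells also held this RNA, with Top2a at 318 CPM. The cells with Top2a were mostly the deep ones. After thinning to 1000 UMIs the share of cells with a Top2a UMI was 21% in Cd4-positive cells, 4.97% in other cells, 16.1% in CD8 T cells and 16.2% in keratin cells (unthinned, 12 of 41, 3 of 68, 85 of 318 and 3233 of 6175).

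The genes at least 2-fold higher in the other cells were Gzma, Ctsw, Ccl3, Ccl4 and Ccl5 of the cytotoxic list and Ccr7, Tcf7, Klf2 and Satb1 of the naive list. Ccl5, a chemokine of effector T and NK cells, had 473 UMIs in 33 of the 68 other cells (3466 CPM) and 54 UMIs in 9 of the 41 Cd4-positive cells (413 CPM), a log2 ratio of -3.06 (-3.50 to -2.66). Of the 33 cells 24 also held Nkg7, a protein of cytotoxic granules. Taken over all 68 other cells, the Ccl5 level was close to that of CD8 T cells (3311 CPM), but 266 of 318 CD8 T cells held it. A single other cell held 99 of the 473 UMIs. Ccl4 was at 344 CPM in 13 other cells against 30.6 CPM in 3 Cd4-positive cells. Nkg7 differed less, with 637.5 against 436 CPM and a log2 ratio of -0.54 (-1.06 to -0.05), and Klrd1, an NK receptor chain that pairs with NKG2A, stood at 476 against 359 CPM with a ratio that spanned 0 (-0.40, -0.98 to 0.16). On the naive side, Ccr7 had 18 UMIs in 8 other cells and 2 in 2 Cd4-positive cells, Klf2, a factor of resting T cells, 41 UMIs in 14 cells against 6 in 2, and Satb1, a chromatin organiser of thymocytes and naive T cells, 60 UMIs in 30 cells against 22 in 13. Satb1 and Ccr7 were thus higher in the same class as Ccl5. Genes of stress and early response (13 genes) moved with that class too, with 6 of 11 measurable genes lower in the Cd4-positive cells (Fos, Fosb, Jun, Dusp1, Atf3 and Ier2), 1 higher (Hspa1b) and a median log2 ratio of -1.0. Of the 112 UMIs of Dusp1 in the other cells 75 were in 1 cell, as were 48 of the 58 of Atf3, and keratin cells held Dusp1 at 449 CPM. Nearly all Hspa1b of the Cd4-positive cells was in 1 cell too, that of 6671 UMIs, which held 19 UMIs of it. The part of these genes in the other ratios was not tested.

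Some genes higher in the other cells came from a few cells with RNA of myeloid or red cells. The deepest other cell, of 12751 UMIs, held 142 UMIs of Il1b, 230 of Cxcl2, 44 of Fcer1g and 88 of Gzma, and 31 UMIs of the defining markers of other classes, with 2 CD3 UMIs. It held 89.9% of the Il1b, 87.5% of the Cxcl2 and 96.7% of the Gzma of the class. A cell of 4772 UMIs held 36 UMIs of Pf4, 34 of Lyz2 and 35 of the markers of other classes. A cell of 1874 UMIs held 370 UMIs of Hbb-bs, all of that gene in the class. By the rule for named genes, which asks for a UMI in at least 5 cells of the higher class, Il1b, Fcer1g, Ly6c2, Ccl6, H2-Aa, Tyrobp, Ccl4 and Irf8 had the largest ratios in favour of the other cells, and Il1b, Fcer1g, Ccl6, H2-Aa, Tyrobp and Irf8 are typical of myeloid cells. When all cells with 2 or more UMIs of the markers of other classes were left out, 100 cells remained, of which 36% were Cd4-positive, and the genes past 2-fold numbered 166 higher and 106 lower in place of 254 and 166. In the Cd4-positive class, a cell of 10097 UMIs held 18 UMIs of those markers, with 17 of the fibroblast gene Dcn, and 15 keratin UMIs. The part of such droplets in the other ratios was not tested beyond these counts.

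Cxcr6, Rora, Maf, Icos and Rgs1 were read in both classes, and none was 2-fold apart. Cxcr6 was found in 32 of 41 Cd4-positive cells and 28 of 68 other cells, at 749.5 and 549.6 CPM, and its log2 ratio was 0.45 (-0.00 to 0.90). After thinning, 55.2% of Cd4-positive and 37.2% of other cells were expected to hold it, against 0.0135% of keratin cells. Rora, a nuclear receptor of type 17 and innate-like T cells, was at 428 and 542 CPM, Maf, a factor of helper cell cytokine genes, at 436 and 278 CPM, Icos, a costimulatory receptor, at 428 and 462 CPM, and Rgs1, which dampens chemokine signals, at 742 and 843 CPM. The log2 ratios were -0.34 (-0.87 to 0.18) for Rora, 0.64 (0.03 to 1.28) for Maf, -0.11 (-0.65 to 0.43) for Icos and -0.18 (-0.59 to 0.22) for Rgs1. Intervals of this width do not show equal levels.

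**Figure D3:**
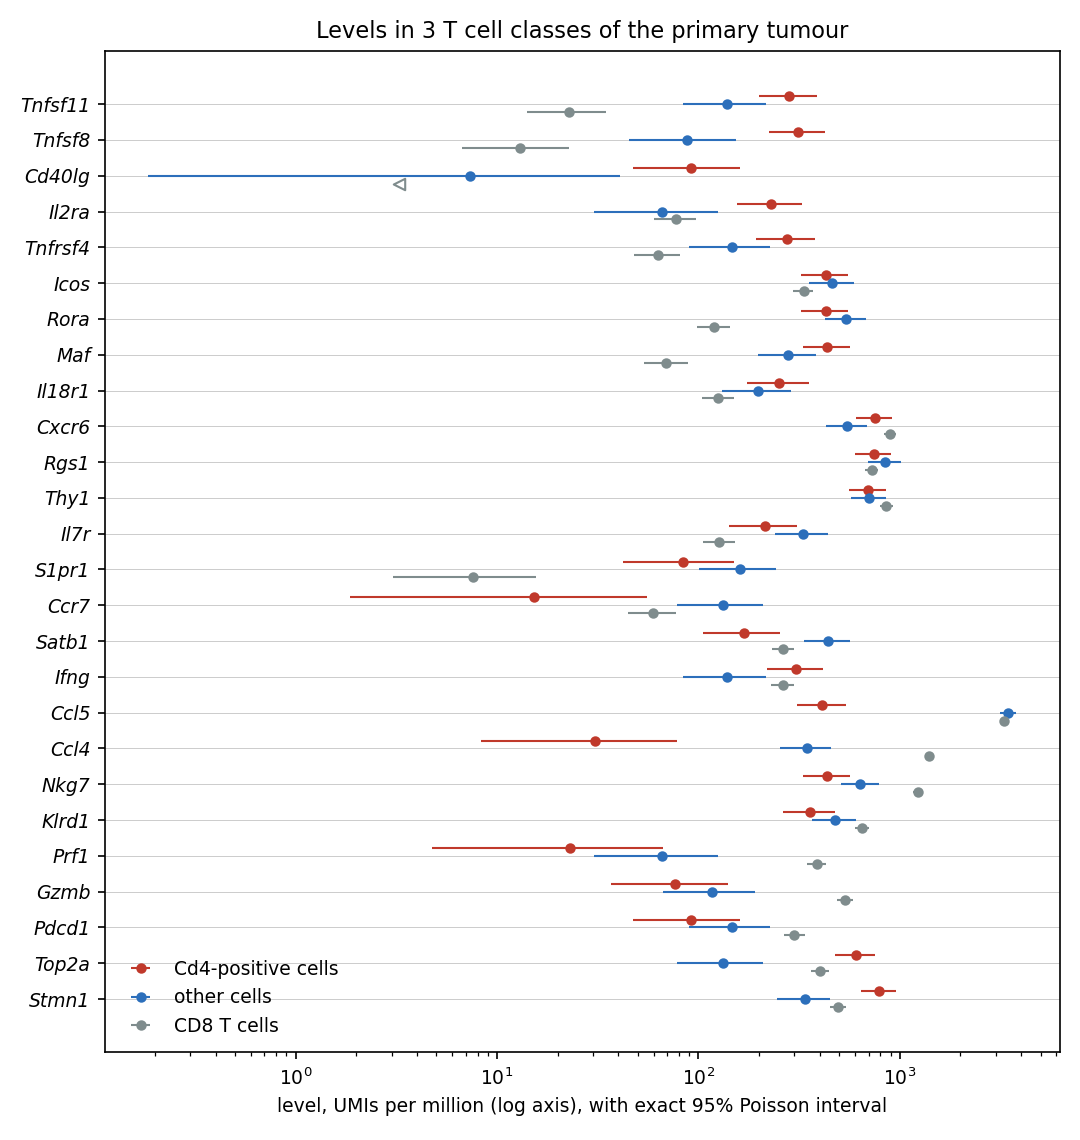
Levels of 26 genes (horizontal, UMIs per 1000000 UMIs on a log axis) in Cd4-positive, other and CD8 T cells of the primary tumour, with exact 95% Poisson intervals as bars and an open triangle for the upper limit of a gene at 0. The ligand genes Tnfsf8, Tnfsf11 and Cd40lg are highest in Cd4-positive cells, Ccl5 is at 3466 and 3311 in other and CD8 T cells, and Prf1 and Gzmb are highest in CD8 T cells.

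The 2 Trdc-positive cells held too few markers to be named as gamma delta T cells. The first had 3542 UMIs and 1516 genes, with 3 UMIs of Trdc, 1 of Cd3d and 2 of Cd3e, and none of Trac, Trbc1 or Trbc2. It was also a dividing cell by its RNA, with 5 UMIs of Mki67, 4 of Top2a and 10 of Stmn1, and held 11 UMIs of the heat shock gene Hspa1b, 5 of Hspa1a, 7 of Rgs1, 4 of Cd69 and 1 of Cxcr6. The other had 1252 UMIs and 713 genes, with 1 UMI each of Trdc, Trac, Trbc1, Cd3d and Cd3e, so that alpha and beta chain RNA stood beside that of the delta chain. It held 4 UMIs of Icos, 4 of Cd69, 3 of Maf, 2 of Rora, 2 of Tnfrsf4 and 5 of Hspa1b. The cell of 3542 UMIs also held 1 UMI of Trgv1, a gamma chain variable region. Neither cell held a UMI of a gamma chain constant region (Trgc1, Trgc2 or Trgc4), of Blk or of Sox13. Trdc (chr14:54142851-54148868) was also read in 497 of 6175 keratin cells (8.05%), or in 0.368% of them after thinning, against a thinned 1.61% (0.104 to 6.89; unthinned 1.80%) of the CD8-negative cells. The interval holds the share in keratin cells, so a higher share of cells with Trdc in this class as a whole was not detectable. The source of Trdc RNA in keratin cells was not tested.

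In the lymph node, Trdc was read in 381 of 1061 keratin cells (35.9%; thinned, 0.994%), against a thinned 2.70% (2.06 to 3.46; unthinned 4.70%) of the CD8-negative cells, at median depths of 45612 and 2854.5 UMIs. The part of such background in the 103 Trdc-positive cells of this library was not tested. They held Trgc1 at 141 CPM in 27 cells, Scart1, a scavenger receptor of gamma delta T cells that make interleukin 17, at 148 CPM in 18 cells, Scart2 at 80.7 CPM in 16, Il17a at 39.1 CPM in 10 and Blk, a kinase of B cells and gamma delta T cells, at 57.3 CPM in 13. In the tumour, Il17a, Il17f, Il22, Il23r, Il1r1, Ccr6, Scart1, Scart2 and Il17re had no UMI in any of the 111 cells. These genes of the type 17 list (17 genes) were thus at most at 11.0 CPM each, a limit above the level of each in the lymph node CD8-negative cells, where the highest were Ccr6 (9.94 CPM), Scart2 (8.77 CPM), Scart1 (8.07 CPM) and Il17a (6.2 CPM), so a lower level in the tumour was not detectable for those genes. Fitted ratios put 4 of 15 genes of the list at least 2-fold higher and 5 lower in the tumour, but Il17a, Ccr6, Scart1 and Scart2 among the 5 had 0 UMIs there. The other was Ramp1, a receptor component for the neuropeptide CGRP, at 22.1 against 52.8 CPM, with a log2 ratio of -1.14 (-2.71 to -0.12). The members of the list that were seen, Rora, Maf and Tmem176b among them, are shared with other T cells.

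Set against the CD8 T cells of the same library (318 cells, 922460 UMIs, median 2095.5), the CD8-negative cells had less RNA of cytotoxic genes and more of naive genes. Of 6694 genes tested, 5.87% were at least 2-fold higher and 4.3% at least 2-fold lower, with a median log2 ratio of 0.08. The cytotoxic list had 0 of 16 genes higher and 10 lower, and the list of NK and innate-like genes (16 genes) 0 higher and 5 of 8 lower. The naive list had 6 of 8 higher and 0 lower, the activation list 5 of 11 higher (Tnfrsf4, Tnfsf8, Tnfsf11, Nfkbid and Nr4a1) and 0 lower, and the inhibitory receptor list (10 genes) 0 higher and 4 of 8 lower. The median log2 ratio was -1.39 for cytotoxic, 1.13 for naive and -0.93 for inhibitory receptor genes. The stress and early response list had 6 of 13 higher and 0 lower, with a median of 0.92, and its part in the other ratios was not tested. Since CD8 T cells with no CD8 UMI counted may be among the 111 cells, each of these differences may be smaller here than between pure classes, which was not tested.

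Prf1, the pore-forming protein of cytotoxic cells, had 12 UMIs in 7 CD8-negative cells (44.1 CPM) and 356 in 144 CD8 T cells (386 CPM), a log2 ratio of -3.07 (-4.10 to -2.31). Gzmb, a granzyme, was at 95.6 against 534 CPM with a ratio of -2.46 (-3.11 to -1.91), and Nkg7 at 529 against 1235 CPM with a ratio of -1.22 (-1.48 to -0.97). Gzmf and Gzmg, closely related copies among which reads can be split, were also lower, at -3.62 and -4.62. Of the inhibitory receptors, Pdcd1, which codes for PD-1, was at 118 against 299 CPM (-1.33, -1.92 to -0.82) and Havcr2, which codes for TIM-3, at 66.2 against 137 CPM (-1.01, -1.85 to -0.33), while Ctla4 did not differ beyond counting error, with a ratio of 0.05 (-0.39 to 0.45). Eomes, a factor of CD8 and NK cells, stood at 80.9 against 266 CPM, and Klrc1, the NKG2A chain, at 118 against 379 CPM. Trgc2 had 97 UMIs in 70 of 318 CD8 T cells but 3 in 3 of the 111 cells, a ratio of -3.04 (-5.56 to -1.66). It is 1 of several near-identical gamma constant regions, and its reads may be shared among them.

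Penk (5.08), Ccl1 (4.68), S1pr1 (3.92), Tnfsf8 (3.89), Tnfsf11 (3.16), Igfbp7 (3.10), Il1rl1 (2.73) and Tiam1 (2.72) had the largest log2 ratios in favour of the CD8-negative cells by the rule for named genes. S1pr1, the exit receptor, had 33 UMIs in 21 cells, at most 3 in a cell, against 7 UMIs in 4 CD8 T cells. Tnfsf8 was at 199 against 13.0 CPM, and its ratio was 3.01 without the deepest cells, while that of Penk was 3.72. Ccl1 had 126 of its 147 UMIs in 1 cell, without which its level was 82.3 CPM in place of 540.4 CPM, against 20.6 CPM in CD8 T cells. Tnfsf11 had 56 UMIs in 21 cells (206 CPM) against 21 in 14 CD8 T cells (22.8 CPM). Rora was at 485 CPM (406 to 575) against 119 CPM (98.0 to 144), a ratio of 2.02 (1.65 to 2.40), and Maf at 360.3 CPM (292 to 439) against 69.4 CPM (53.4 to 88.6), a ratio of 2.37 (1.91 to 2.85). These rested on many cells. After thinning to 1000 UMIs, 37.0% of CD8-negative cells (27.0 to 47.9; unthinned 50.5%) and 11.2% of CD8 T cells (7.87 to 15.4; unthinned 22.6%) held Rora, and 26.4% (17.7 to 36.9; unthinned 39.6%) and 5.80% (3.43 to 9.11; unthinned 9.75%) held Maf, with keratin cells at 0.291% and 1.56%. Rora and Maf were above the CD8 T cells in both the Cd4-positive and the other cells. They are not particular to these classes, since the 10 tumour Foxp3 cells held more of both, at 1129 CPM each in 7 and 8 cells. Tcf7, a factor of naive and memory cells, was at 118 against 22.8 CPM, Tnfrsf4, the OX40 receptor, at 213 against 62.9 CPM, and Il7r at 272 against 127 CPM.

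The same rule in the lymph node library gave 2236 CD8-negative T cells with 8547920 UMIs. Library, tissue, digestion time and depth cannot be told apart in this contrast. Of 10292 genes tested, 26.8% were at least 2-fold higher and 10.2% at least 2-fold lower in the tumour cells, with a median log2 ratio of 0.38, so ratios are read against a shift towards the tumour. All 10 genes of the naive and central memory list were measurable, of which 0 were higher and 8 lower in the tumour, with a median of -1.65. The cytotoxic list had 12 of 13 measurable genes higher and 0 lower (median 2.86), the type 1 list 7 of 10 higher and 0 lower (2.76), the cell cycle list 11 of 12 higher and 0 lower (1.46), the chemokine receptors 7 of 11 higher and 3 lower (1.77), the residency list 6 of 10 higher and 1 lower (1.86) and the inhibitory receptors 5 of 9 higher and 0 lower (2.09). RNA of other sources moved with the library too. Haemoglobin genes were higher in 4 of 4, cancer cell genes in 3 of 5, and the 20 defining markers of other classes were 3 higher and 8 lower of 13, at 449 CPM in the tumour and 581 CPM in the lymph node, with a range per cell of 0 to 35 and 0 to 306 UMIs. Their part in the ratios was not tested.

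Cxcr6, which holds T cells in tissues that make CXCL16, was at 639.7 CPM (548 to 742) in the tumour and 31.1 CPM (27.5 to 35.1) in the lymph node, a log2 ratio of 4.36 (4.08 to 4.64). After thinning, 44.1% of tumour cells (33.6 to 55.1; unthinned 55.0%) and 2.53% of lymph node cells (1.92 to 3.27; unthinned 5.14%) held it. Ccr7, the lymph node homing receptor, was the reverse, at 73.5 CPM (44.9 to 114) against 590.3 CPM (574 to 607), with thinned shares of 8.17% and 42.7%. Of the 61 tumour cells with Cxcr6, 1 also held Ccr7 and 8 held S1pr1, while 13 cells held S1pr1 without Cxcr6 and 37 held neither. Lef1, a factor of naive T cells, had a ratio of -2.40 (-3.22 to -1.76), Satb1 -1.81 (-2.15 to -1.51) and S1pr1 -1.49 (-2.05 to -1.02). S1pr1, although high beside the CD8 T cells of the tumour, was therefore below its lymph node level, at 121 against 346 CPM. Cd69, often taken as a residency marker, was at 173 and 158 CPM with a ratio of 0.14 (-0.32 to 0.55), and Itgae, the CD103 integrin chain, had 1 UMI in the tumour cells against 125 in the lymph node cells, with a ratio of -1.41 whose interval (-7.31 to 0.51) held 0.

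Ifng was at 217 CPM in 17 cells against 16.8 CPM in 53 of 2236 cells, a log2 ratio of 3.69 (3.22 to 4.13). Of its 59 tumour UMIs 28 were in 1 cell, without which the ratio was 2.79. Nkg7 was at 529 against 71.9 CPM (2.88, 2.61 to 3.14), and Il18r1, an interleukin 18 receptor chain, at 224 against 29.0 CPM (2.96, 2.52 to 3.36). Rgs1 was higher by 2.62 (2.41 to 2.83), Thy1, a surface protein of T cells, by 2.76 (2.53 to 2.99), and Pdcd1 by 2.79 (2.17 to 3.33). Cx3cr1, the fractalkine receptor of effector and myeloid cells, had 28 UMIs in 19 tumour cells against 6 UMIs in 4 lymph node cells. Penk was found in 17 of 111 tumour and 53 of 2236 lymph node cells, at 1154 and 50.2 CPM. Ccl1 had 147 UMIs in the tumour, 126 of them in 1 cell, and 2 UMIs in the lymph node. Il13 was seen in 3 lymph node cells, none of which held Il5 or Penk. By the rule, the remaining genes with the largest ratios were Pf4, Ccl6, Il1b, Ccl3, Clec4e and Cxcl2, of which a single tumour cell held much, from 19 of 35 UMIs of Ccl6 to 142 of 160 of Il1b. Those lower in the tumour were Dcpp3, Dcpp2, Dcpp1, Ighg2b, Bpifa2, Wfdc18, Lmo1 and Scgb2b27, all at 0 UMIs there, and most are secreted proteins of glands. In the lymph node 14269 of 28209 Dcpp3 UMIs were in 1 cell, while those of Lmo1 were spread over 48 cells with at most 54 of 537 in 1, and the Dcpp genes are near-identical copies.

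Taken alone, the Cd4-positive cells, 41 in the tumour and 580 in the lymph node, differed in the same direction for the genes named next. Of 7907 genes tested in them, 2087 (26.4%) were at least 2-fold higher and 987 (12.5%) at least 2-fold lower in the tumour, with a median log2 ratio of 0.38. The log2 ratio of Cxcr6 was 5.75, that of Nkg7 3.94, that of Ifng 3.29 (1.63 without the cell that held most of it), that of Top2a 2.56, that of Ccr7 -4.92, that of Lef1 -3.17 and that of S1pr1 -1.97. The Cd4-positive cells of the lymph node held Cxcr6 in 16 of 580 cells and Ccr7 in 399, against 32 and 2 of the 41 cells in the tumour.

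**Figure D4:**
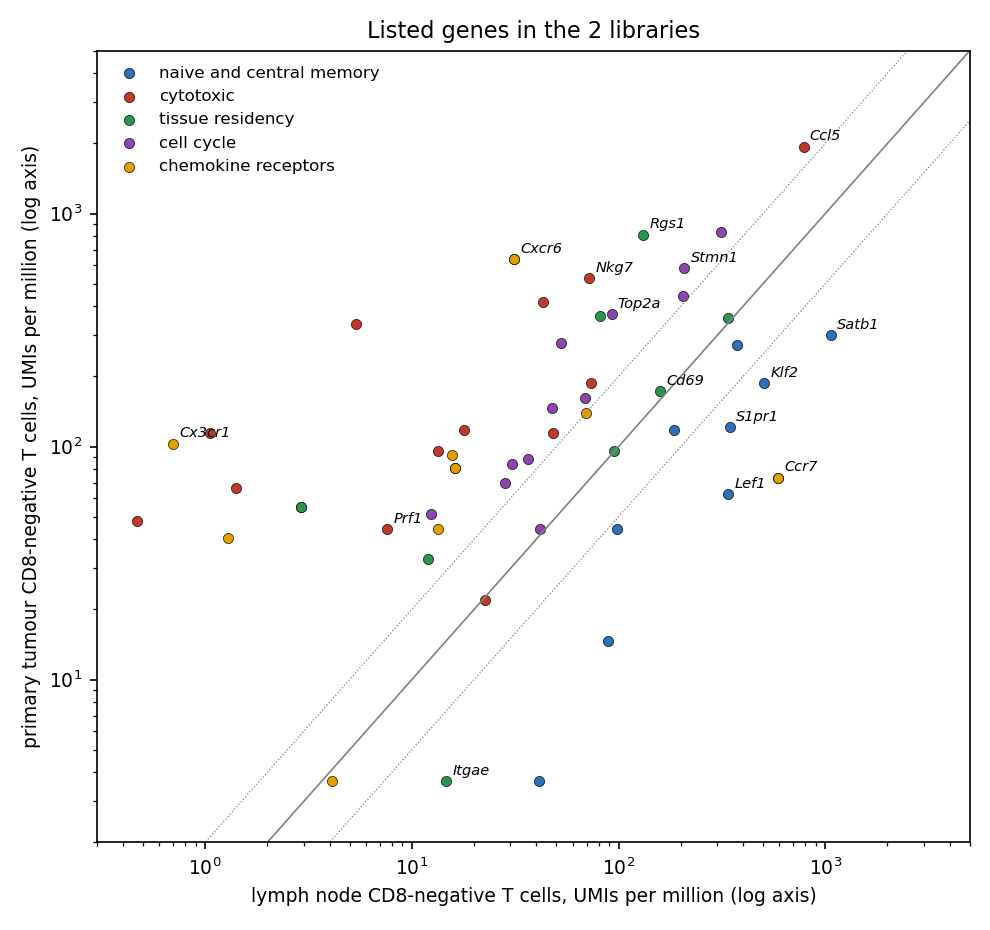
Levels of the genes of 5 lists in CD8-negative T cells of the lymph node (horizontal) and of the primary tumour (vertical), in UMIs per 1000000 UMIs on log axes, with a solid line of equal levels and dotted lines at 2-fold, genes at 0 in either library not being drawn. The naive genes Ccr7, Lef1, S1pr1, Klf2 and Satb1 lie below the lower dotted line and Cxcr6, Nkg7, Rgs1 and Top2a above the upper one.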

How the data were processed

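Single-cell RNA libraries of primary tumours and lymph nodes, each pooled from 6 mice, were used. The deposited values are raw UMI counts, whole numbers without normalization, which per the file headers the authors made with Cell Ranger 5.0.0, while the submitters' processing notes name version 2.1.1 and the build GRCm38. Cell types and the mouse of origin are not given, and each library counts as 1 sample. The cells and gene lists were chosen with earlier results of these data known, and the contrast of Cd4-positive with other cells was added after the data were seen, since 2 Trdc-positive cells could not carry the planned contrast with them.

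UMIs were summed per class. CPM took exact Poisson intervals, shares Clopper-Pearson intervals (95%), and a count of 0 an upper limit of 3 counts. Log2 ratios added 0.5 count to each sum, with an exact interval for the split of the counts, over genes with at least 20 UMIs in the groups together. Past 2-fold is a size and not a test. Shares after thinning are expectations at 1000 UMIs, with shallower cells left out. Besides listed genes, the 8 with the largest ratio in each direction were named if found in at least 5 cells and no lower than in cells without CD3, leaving out the rule's own genes. Doublets were scored with Scrublet in scanpy 1.11.5 (expected rate 6%, 30 components), which marked 655 tumour cells (5.34%). In the lymph node it marked 0 of 11565, under the 0.5% below which it was taken to have failed, and its 692 top-scoring cells (those past percentile 94) were taken there instead. Doublet calls were left out only as an alternative. The code, run with python 3.11.15, numpy 2.4.6 and scipy 1.17.1, was tested on simulated data.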

Additional observations from a re-analysis of the deposited data

How the results depend on the processing

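No paired analysis was possible because each tissue had 1 library. The limits on CD3 and Cd4 set the size of the classes. With at least 1 CD3 UMI there were 181 cells, 26.5% of them Cd4-positive and 4 Trdc-positive, and with at least 3 there were 69 cells, 50.7% and 1. With at least 2 UMIs of Cd4 or Trdc, 16.2% were Cd4-positive and 1 cell Trdc-positive. For Cd4-positive against other cells, the genes at least 2-fold lower numbered 336 with at least 1 CD3 UMI and 101 with at least 3, those higher and lower were 166 and 106 without cells holding 2 or more UMIs of other classes, and those higher were 167 without the deepest cell of each class. Counts of genes followed the minimum and the fold: 46 and 36 at 50 UMIs, 600 and 434 at 10 UMIs and 71 and 77 at 3-fold for Cd4-positive against other cells. For CD8-negative against CD8 T cells they were 114 and 106, 750 and 518, and 97 and 98. For tumour against lymph node they were 1297 and 518 at 3-fold. By the mean of single-cell CPM, 477 genes were lower than in CD8 T cells. Of 446 alternative values of the 36 log2 ratios followed, 14 crossed 2-fold, 8 of the 14 for Tnfsf11 or Satb1 between Cd4-positive and other cells. Changes of sign were counted only where the reported ratio was at least 2-fold, and there were 0. Ifng between Cd4-positive and other cells was not among the 36 ratios. Without 1 cell its level in Cd4-positive cells fell below that of the other cells. Levels were less stable: of 260 alternative values of 20 levels 42 left the counting interval of the reported value, as did 5 of 40 values of 20 shares. Leaving out the deepest cells, the cell with most Ifng and the cells with shared barcodes was chosen after seeing the data. Contrasts of Trdc-positive cells were not run with 2 such cells. Depth limits all values at 0, and with 1 library per tissue the spread between animals is unknown.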

Other observations

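The 10 tumour cells with a Foxp3 UMI and no CD8 UMI, which the rule left out, differed in RNA from the CD8-negative cells by counts. All 10 held Ikzf2, 8 held Ctla4, 7 held Il2ra and 4 held Il1rl1, while Cxcr6 was found in 1, Penk in 1 (5 UMIs) and Tnfsf8 in none. Ikzf2 without Foxp3 was found in 11 Cd4-positive and 16 other cells, at 237 and 491 CPM, against 1757 CPM in the Foxp3 cells. Of 8 tumour cells with Ncr1 and no CD3 UMI, 1 held 16 UMIs of Ccl1. In CD8 T cells, 19 Ccl1 UMIs were found in 5 cells and Penk in 11 cells, 9 of which held Ccl5.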
